A study of Mus musculus with 4 samples.

Results

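The genes described here are 8 genes of the red cell surface: Rhag, Rhd, Slc4a1, Aqp1, Kel, Ermap, Icam4 and Gypc. They were chosen by symbol as carriers of blood group antigens, channels and adhesion proteins of the red cell membrane. Earlier results of these data were known when they and the gene lists below were chosen. The members are 8 of 30702 genes that had a transcript cluster (the group of probes that reads 1 gene or transcript) of their own. Each had exactly 1 such cluster, so no choice between clusters was needed, and all 8 were among the 17208 genes compared. A further cluster lists Icam4 together with the microRNA gene Mir1900 and was not used.

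The levels come from 4 Affymetrix arrays of mouse bone marrow RNA, 1 array for each of 4 groups named in the labels as control, cisplatin, Astragalus membranaceus and electro-acupuncture. Cisplatin is a platinum drug that crosslinks DNA and harms blood-forming marrow. Astragalus membranaceus, called astragalus below, is a root used in Chinese medicine, and electro-acupuncture passes a current through acupuncture needles. The labels place the harvest of tibial marrow 2 weeks into treatment, and the design text speaks of 6 mixed marrow samples, taken here as 6 per array although it does not say so. The sources used here give no strain, sex, age or dose, and do not say whether mice of the astragalus and electro-acupuncture groups also received cisplatin, so these 2 arrays were set against both the control and the cisplatin array. With 1 array per group there is no spread between replicates and no test was run. Each difference rests on 2 arrays, so its precision cannot be estimated.

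Red cells form in the marrow from erythroblasts, which fill their membrane with a small set of very abundant proteins. Band 3, encoded by Slc4a1, anchors a complex that also holds the Rh proteins, the adhesion protein of Icam4 and CD47, and that ties through ankyrin to the spectrin skeleton. A second kind of complex sits at the junctions of the skeleton and includes glycophorin C, encoded by Gypc, and the Kell protein bound to its partner XK. Many of these proteins carry blood group antigens. Erythroid genes are classically driven by GATA1, which binds short GATA words in DNA, and by KLF1, which binds C-rich words.

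The promoter stretches of 6 of the 8 genes are shown because these genes share a GATA word close to the annotated start in all but 1 case. The RefSeq promoter table (build GRCm38.p6) held windows for Rhag, Rhd, Kel, Ermap, Icam4 and Aqp1, each reaching from 250 bases before to 50 bases after the start. Slc4a1 and Gypc are named only. The words searched on both strands were AGATAA with its variant AGATAG and TGATAA with its variant TGATAG, together called GATA words, and the C-rich word CCNCNCCC. Each line gives the 100 bases before the start on the strand of the gene, with the words found in capitals.
Rhag, chr17:40811049-40811148, plus strand: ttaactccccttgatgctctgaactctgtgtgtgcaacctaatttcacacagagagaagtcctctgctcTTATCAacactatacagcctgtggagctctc
Rhd, chr4:134864436-134864535, plus strand: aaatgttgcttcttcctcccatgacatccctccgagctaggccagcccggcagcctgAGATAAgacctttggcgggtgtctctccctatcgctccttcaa
Kel, chr6:41704326-41704425, minus strand: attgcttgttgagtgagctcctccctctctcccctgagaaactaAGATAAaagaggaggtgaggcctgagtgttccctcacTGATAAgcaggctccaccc
Ermap, chr4:119189996-119190095, minus strand: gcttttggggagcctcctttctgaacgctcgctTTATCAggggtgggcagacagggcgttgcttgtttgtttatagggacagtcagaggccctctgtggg
Icam4, chr9:21029332-21029431, plus strand: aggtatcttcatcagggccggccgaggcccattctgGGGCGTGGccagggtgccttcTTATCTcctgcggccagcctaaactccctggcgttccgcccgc
Aqp1, chr6:55336199-55336298, plus strand: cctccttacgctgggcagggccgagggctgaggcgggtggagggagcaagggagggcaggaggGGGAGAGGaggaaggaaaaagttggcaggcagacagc

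A GATA word lay in 5 of these 6 windows, and in all 5 it fell within the 100 bases before the start. Its first base was 31 bases before the start in Rhag, 43 in Rhd and Icam4 and 67 in Ermap, and Kel had a pair of words, at 56 and 19 bases. Aqp1 had none in its window. A GATA word was held by 29.8% of all 32851 windows, and 10.4% held one in the last 100 bases before the start, a stretch that was picked after the words had been located. Among other genes, a GATA word in those 100 bases was found for 4 of 11 genes of heme synthesis and iron uptake with a window, 3 of 12 erythroid regulators, 2 of 9 early erythroid and progenitor genes, 1 of 10 genes of the membrane skeleton and 1 of 27 other blood group and surface genes. Among markers of other cells it was found for 2 of 8 platelet, 2 of 12 neutrophil, 1 of 7 macrophage, 1 of 9 B cell, 1 of 9 endothelial and 0 of 8 stromal and bone genes. Over the whole window a GATA word was found for 4 of 11 heme, 7 of 12 regulator and 3 of 9 early erythroid genes. Membrane skeleton genes had one in 6 of 10 cases and other surface genes in 8 of 27. For markers of other cells the counts were 4 of 8 platelet, 4 of 12 neutrophil and 2 of 7 macrophage genes. B cell and endothelial markers had 3 of 9 each, and stromal and bone markers 0 of 8. The C-rich word was in 3 of the 6 windows, at 3 places in Aqp1, at 2 in Icam4 and just past the start in Rhd, against 49.5% of all windows. No C-rich word overlapped a GATA word. A match describes the letters and shows no binding.

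**Figure D1:**
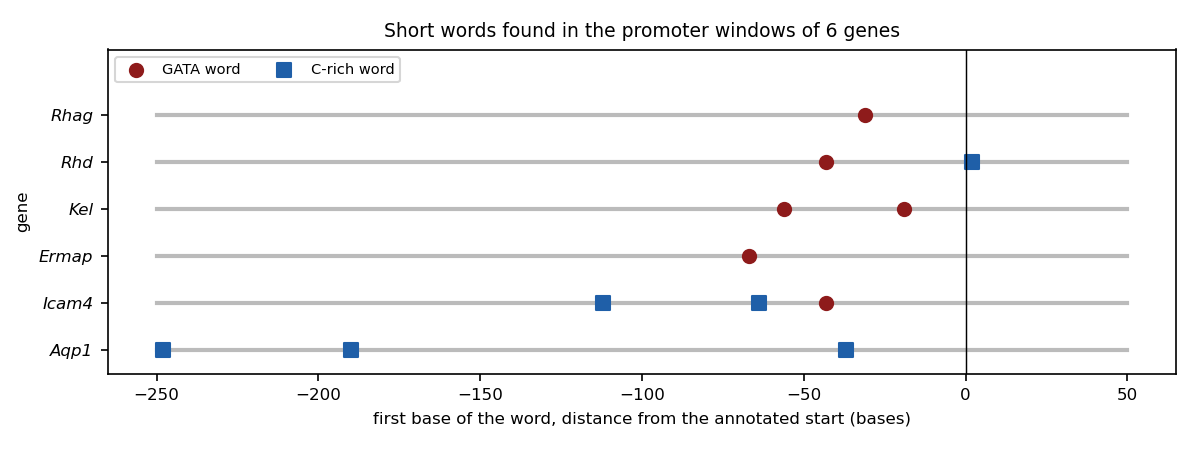
Places of GATA words (circles) and C-rich words (squares) in the promoter windows of 6 genes, given as the distance of the word's first base from the annotated start in bases. Rows are genes, grey lines are the windows from 250 bases before to 50 after the start, and the GATA words of 5 genes lie between 67 and 19 bases before it.

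Of the 8 genes, 7 had their highest level on the astragalus array and 1, Kel, on the control array. The cisplatin array held the lowest level of 5 genes, the control array of 2 and the electro-acupuncture array of 1. The share of all genes lowest on each array was not counted, so these lowest counts have no background beside them. Among all genes compared, 34.5% were highest on the astragalus array alone, which had the widest spread of values (7.2 log2 units between its 5th and 95th percentiles, against 6.8 to 6.83 on the other arrays). Levels below are deposited log2 values, and they are compared within a gene only, since clusters differ in how strongly they bind.

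The Rh proteins come first. Rhag, the Rh-associated glycoprotein that conducts ammonia and is needed for the Rh complex to reach the surface, was at 13.48 in control and 13.72 in cisplatin, against 15.04 in astragalus and 14.37 in electro-acupuncture. Its range of 1.56, or 2.95-fold, was the widest of the 8 genes, and control was its lowest array. Rhd, the Rh antigen protein itself and the partner of Rhag, was at 10.53 in control and 9.91 in cisplatin, against 11.08 in astragalus and 10.58 in electro-acupuncture. The 2 partners therefore differed in the order of their arrays: Rhag was 1.18-fold higher in cisplatin than in control, while Rhd was 1.54-fold lower there.

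The transporters followed. Slc4a1, the chloride and bicarbonate exchanger band 3, was at 15.24 in control and 15.02 in cisplatin, against 15.92 in astragalus and 15.19 in electro-acupuncture. Astragalus stood above the other 3 arrays, which lay within 0.22 of each other. Aqp1, the water channel that carries the Colton antigens, was at 10.93 in control and 10.84 in cisplatin, against 12.04 in astragalus and 11.42 in electro-acupuncture. Control and cisplatin were close, electro-acupuncture was between them and astragalus, and astragalus was 2.3-fold above cisplatin.

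Kel, a zinc endopeptidase that carries the Kell antigens, was at 14.1 in control and 13.16 in cisplatin, against 13.93 in astragalus and 13.27 in electro-acupuncture. Control and astragalus were high and cisplatin and electro-acupuncture low. Gypc and Slc4a1 had this split too, although in Slc4a1 control (15.24) and electro-acupuncture (15.19) were nearly level. Of the 8 genes Kel alone had control above astragalus. Gypc, the glycophorin that ties the membrane to protein 4.1, was at 8.32 in control and 8.17 in cisplatin, against 8.53 in astragalus and 8.03 in electro-acupuncture. Its range of 0.5, or 1.41-fold, was the narrowest of the 8.

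The remaining members belong to the immunoglobulin superfamily. Ermap, the erythroid membrane-associated protein that carries the Scianna antigens, was at 14.2 in control and 13.81 in cisplatin, against 15.04 in astragalus and 14.3 in electro-acupuncture. Control and electro-acupuncture were level, and the arrays of cisplatin and astragalus lay on either side of them. Icam4, an adhesion protein that carries the Landsteiner-Wiener antigens and binds integrins, was at 7.13 in control and 7.48 in cisplatin, against 8.34 in astragalus and 8.04 in electro-acupuncture. Its arrays had the same order as those of Rhag, with control lowest, then cisplatin, then electro-acupuncture.

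**Figure D2:**
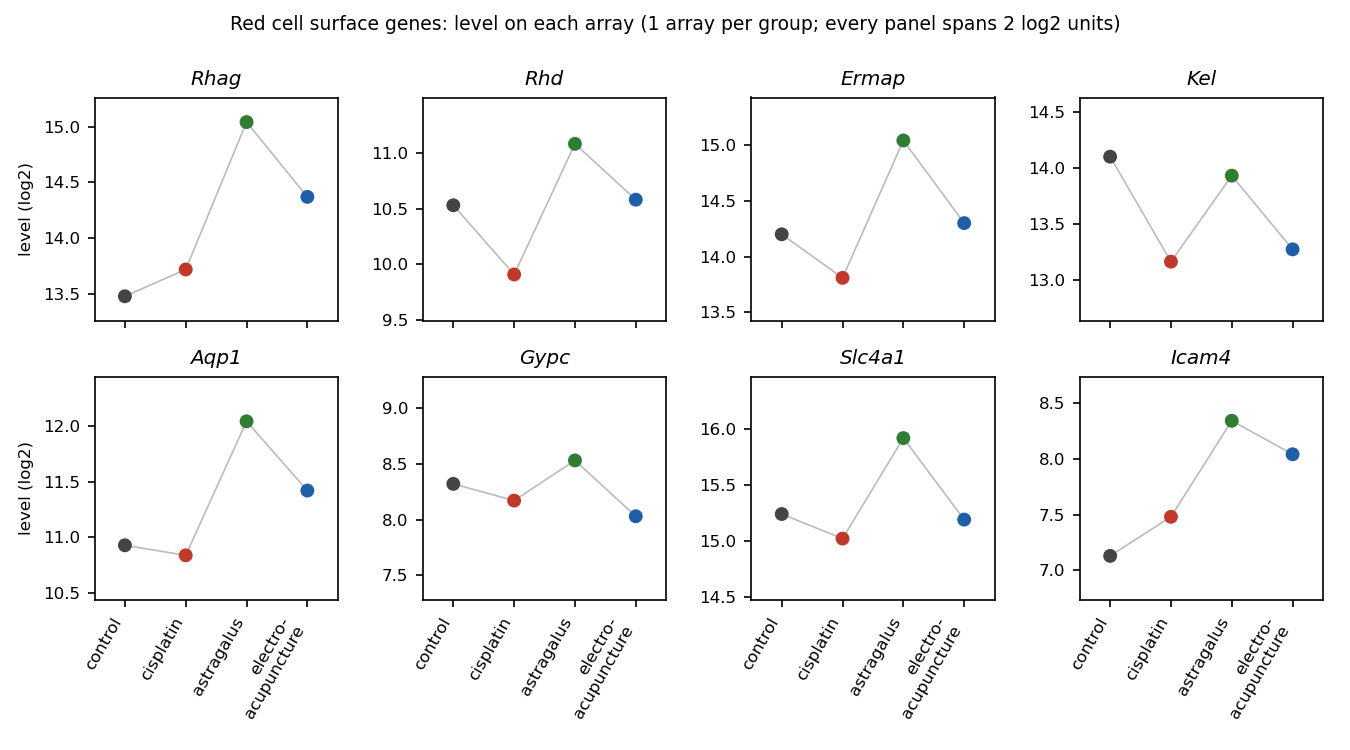
Level of each gene on the 4 arrays, in log2 units, with 1 point per array and every panel spanning 2 log2 units; thin lines only join the points. Astragalus is the highest point in 7 panels and control in that of Kel, while Rhag and Icam4 are lowest in control.

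Likeness between profiles was measured as the Euclidean distance over the 4 arrays after each gene's mean was subtracted. Among the 28 pairs of members, Rhd and Ermap were closest at 0.24, followed by Ermap with Slc4a1 at 0.27 and Ermap with Aqp1 at 0.29. Rhag was nearest to Aqp1 and Icam4, at 0.35 each, and was 0.79 from Rhd. Kel and Rhag were the farthest pair, at 1.41, and Kel lay nearest to Gypc, at 0.57. Measured against the median profile of the 8 genes, Ermap was the most typical at 0.15 and Kel the least at 0.75. The median profile stood at -0.12 in control and -0.44 in cisplatin relative to each gene's own mean, at 0.59 in astragalus and at 0.01 in electro-acupuncture.

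**Figure D3:**
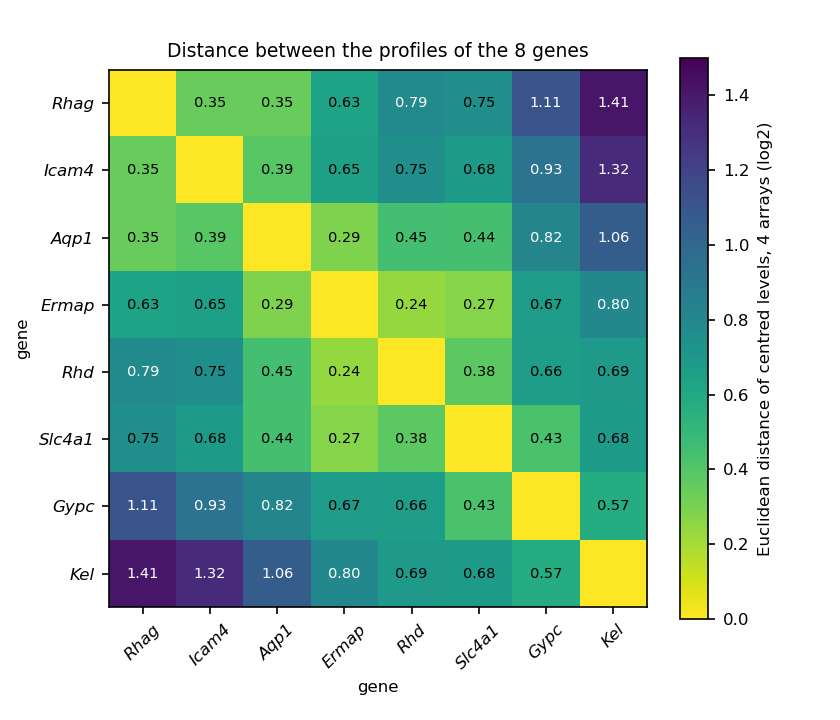
Euclidean distance in log2 units between the centred levels of each pair of the 8 genes over 4 arrays, with genes on both axes and darker cells farther apart. The lightest off-diagonal cell is Rhd with Ermap at 0.24 and the darkest is Rhag with Kel at 1.41.

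In the comparison of astragalus with cisplatin all 8 genes were higher in astragalus, where 56.8% of all genes compared were. Rhag was 2.5-fold, Ermap 2.35-fold, Aqp1 2.3-fold and Rhd 2.25-fold higher. These 4 of 8 reached a 2-fold difference, the size used for counting (a log2 difference of 1), while 2.0% of all genes compared were at least 2-fold higher. Slc4a1 was 1.87-fold, Icam4 1.82-fold, Kel 1.71-fold and Gypc 1.28-fold higher. The median difference of the 8 genes was 1.04 on the log2 scale against 0.06 over all genes compared.

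After a smooth (loess) trend of the difference on the level was taken out, all 8 genes were still higher in astragalus, with a median of 0.73 and a range from 0.15 in Gypc to 0.89 in Rhag, and none reached 2-fold. After quantile normalization 3 of 8 did, Rhd standing at 0.94. Among all genes, 8541 of 17208 were higher by any amount after loess and 131 by at least 2-fold. Quantile normalization put 195 of 17189 genes at least 2-fold higher. The scaling also moved the split of all genes at least 2-fold different in this comparison, of which 51.0% were higher in astragalus as deposited, 33.7% after quantile normalization, 22.7% after loess and 71.8% with each array centred on its median. That centring moved the median difference of all genes from 0.06 to 0.17.

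In the comparison of cisplatin with control 6 of the 8 genes were lower in cisplatin and 2 higher. None reached 2-fold, and 2.98% of all genes compared did, in either direction. Kel was 1.92-fold lower and only 1.1% of all genes compared stood lower. It passed 2-fold after quantile normalization and after loess, at log2 differences of -1.11 and -1.09. With these scalings 2.81% and 2.71% of all genes differed 2-fold, in either direction. Rhd was 1.54-fold, Ermap 1.31-fold, Slc4a1 1.16-fold, Gypc 1.11-fold and Aqp1 1.06-fold lower. Icam4 was 1.27-fold and Rhag 1.18-fold higher. The median of the 8 was -0.19 and that of all genes 0.01, and 46.9% of all genes were lower.

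In the comparison of electro-acupuncture with cisplatin 7 of 8 genes were higher in electro-acupuncture, against 52.5% of all genes, and none reached 2-fold, against 3.91% of all genes in either direction. The median was 0.53 over the 8 genes and 0.02 over all. Rhd (1.59-fold), Rhag (1.57-fold), Aqp1 (1.49-fold), Icam4 (1.47-fold) and Ermap (1.4-fold) formed the upper end. Slc4a1 and Kel were 1.13-fold and 1.08-fold higher, Kel standing at -0.04 on the log2 scale after loess, and Gypc was 1.1-fold lower. Astragalus was above electro-acupuncture for all 8 genes, by 0.3 in Icam4 to 0.74 in Ermap, and for 57.5% of all genes. These 8 differences had a median of 0.64, which quantile normalization lowered to 0.37 and loess to 0.33. Loess left all 8 higher, by 0.1 to 0.49, where 8617 of 17208 genes were higher. No member differed 2-fold between these arrays, and 1.53% of all genes did. Here too scaling mattered: of all genes at least 2-fold different, 43.0% were higher in astragalus as deposited, 27.7% after quantile normalization, 22.4% after loess and 71.5% after centring.

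Against the control array the members spread more widely. In astragalus 7 of 8 were higher, against 55.3% of all genes, and Rhag (2.95-fold), Icam4 (2.31-fold) and Aqp1 (2.16-fold) were at least 2-fold higher, where 6.13% of all genes were. Kel was 1.13-fold lower. The median of 0.76 was 0.42 after quantile normalization, with 2 genes past 2-fold and Aqp1 at 0.88, and 0.2 after loess, which left Icam4 alone past 2-fold, at 1.05, with Rhag at 0.96. At least 2-fold higher were 730 of 17189 genes after quantile normalization and 546 of 17208 after loess. Of all genes at least 2-fold different from control, 69.6% were higher in astragalus as deposited, 58.9% after quantile normalization, 47.4% after loess and 79.5% after centring. In electro-acupuncture 5 members were higher than in control and 3 lower, where 53.7% of all genes were higher, with a median of 0.08 that changed sign under quantile normalization (-0.02) and loess (-0.14). None reached 2-fold as deposited, against 7.26% of all genes. Icam4 was 1.88-fold and Rhag 1.85-fold higher, while Kel was 1.78-fold lower and reached -1.13 on the log2 scale after loess. With loess 6.65% of all genes differed 2-fold, in either direction. The 8 differences had an SD among genes of 0.59 here and of 0.15 between astragalus and electro-acupuncture. The comparisons share arrays, so these counts are not independent of each other.

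The background is lower among the 11233 protein-coding genes compared, to which all 8 members belong. There 0.926% of genes were at least 2-fold higher in astragalus than in cisplatin and 3.8% in astragalus than in control. In either direction 1.71% differed 2-fold between cisplatin and control, 0.623% between electro-acupuncture and cisplatin, 3.26% between electro-acupuncture and control and 0.445% between astragalus and electro-acupuncture. Among the 9226 genes above a floor at the 75th percentile, which all 8 members also pass, the background is higher. Of these, 314 were at least 2-fold higher in astragalus than in cisplatin and 1003 in astragalus than in control. In either direction 6.41% and 14.9% differed 2-fold in these comparisons, in that order, against 3.92% and 8.81% of all genes compared. The 9226 genes had a median difference of 0.18 between astragalus and cisplatin. At a looser size of 1.5-fold, 7 of 8 members differed between astragalus and cisplatin, all but Gypc, against 14.4% of all genes. Between astragalus and control 5 of 8 did, against 21.1% of all genes, and between astragalus and electro-acupuncture 5 of 8 did, against 9.86%. Kel and Rhd passed 1.5-fold between cisplatin and control, where 11.4% of all genes did, and Rhag and Rhd did between electro-acupuncture and cisplatin, where 11.3% did. Rhag, Icam4 and Kel passed it between electro-acupuncture and control, against 18.0% of all genes.

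**Figure D4:**
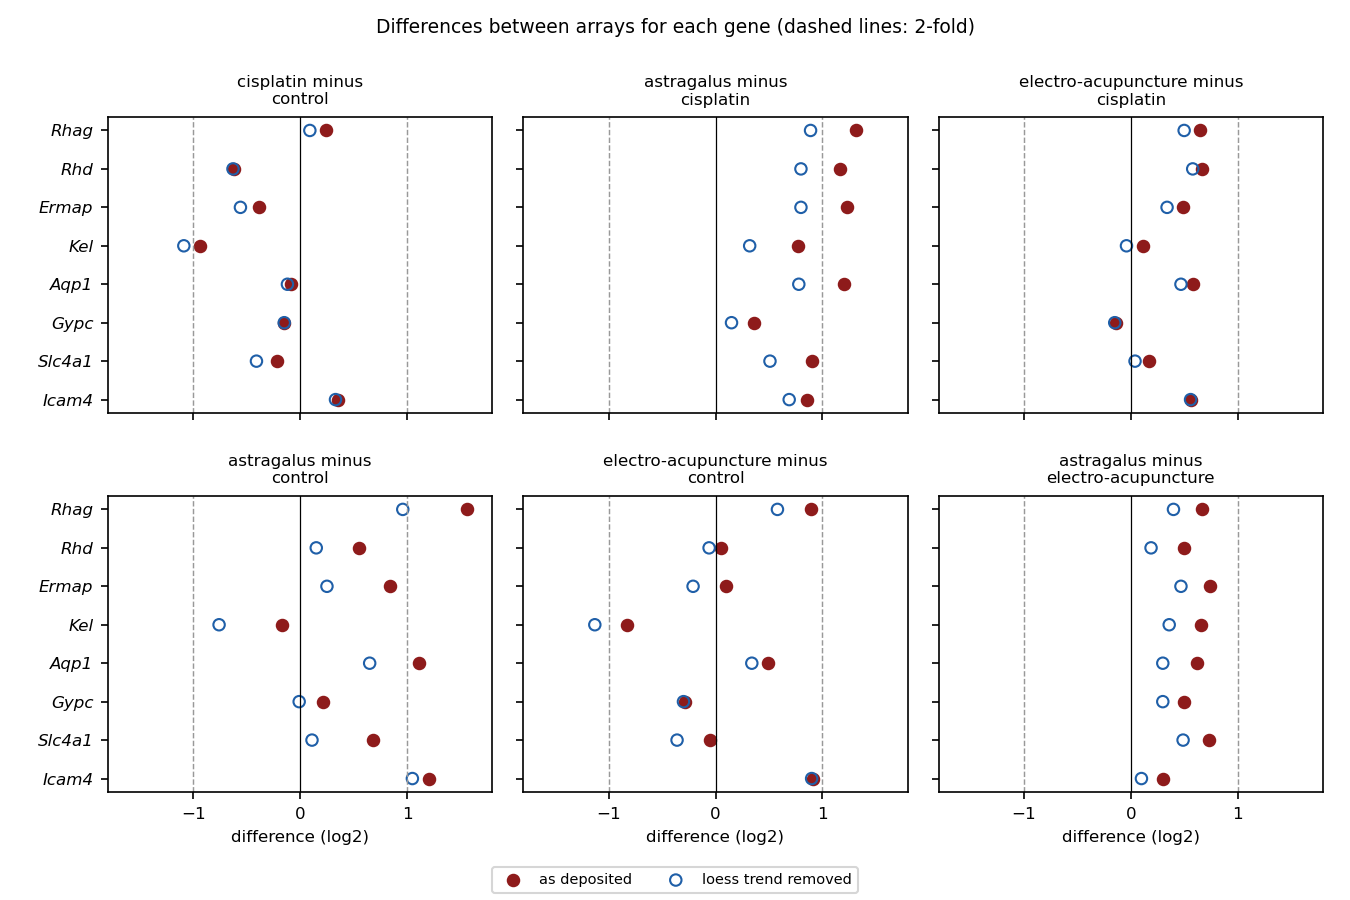
Difference in log2 units of each gene (rows) in the 6 comparisons (panels), as deposited (filled circles) and with the loess trend removed (open circles); dashed lines mark 2-fold. All 8 filled circles lie right of 0 in astragalus minus cisplatin and in astragalus minus electro-acupuncture, and Kel lies farthest left in the 3 comparisons with control.

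Other genes of the red cell surface were less far apart as a list, but the list was not matched to the members in level. The list of 32 further blood group, channel and transporter genes had 27 above the floor. Their median level in control was 7.95 and the lowest 5.31, against 12.21 and 7.13 for the members. Levels near the floor of 5.235 leave little room to show a difference. Of the 27 genes, 25 were higher in astragalus than in cisplatin and none lower, with a median of 0.29. Slc43a1, an amino acid transporter, was 2.0-fold higher and was the only 1 of the 27 to reach 2-fold. Cd47, whose protein shares the Rh complex, was at 15.37 in control and 15.1 in cisplatin, against 15.93 in astragalus and 15.44 in electro-acupuncture, the same order of arrays as Rhd and Ermap. Xk, which encodes the partner of the Kell protein, was at 7.43, 7.4, 7.7 and 7.43 in the same arrays. It thus did not show the high control level of Kel. Slc14a1, the urea channel of the Kidd antigens, was at 10.88 in control and 11.84, 12.13 and 12.1 in cisplatin, astragalus and electro-acupuncture, so that control stood apart from the others. Bsg, an immunoglobulin superfamily protein that carries the Ok antigens, was 2.1-fold higher in astragalus than in control. Cd24a had 19.66 on every array, close to the common ceiling of 19.93, and gives no difference.

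The membrane skeleton followed the members in part. Of its 10 genes above the floor, 9 were higher in astragalus than in cisplatin, with a median of 0.65, and Sptb, the beta spectrin, was 2.14-fold higher. Ank1, the ankyrin that holds band 3, was at 11.7 in control and 11.52 in cisplatin, against 12.18 in astragalus and 11.41 in electro-acupuncture. Epb42, protein 4.2 of the same complex, was at 10.47, 9.88, 10.51 and 9.9 in that order of arrays, a split like that of Kel. Against cisplatin, 5 of the 10 were higher in electro-acupuncture and 5 lower, with a median of -0.02. Mpp1, which binds glycophorin C and protein 4.1, was 1.67-fold higher there and Tmcc2 1.32-fold lower.

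Regulators and heme genes differed by smaller amounts. Of 14 erythroid regulators 13 were higher in astragalus than in cisplatin, with a median of 0.35 and none at 2-fold, and Klf3, a repressor of the KLF family, was 1.99-fold and Klf1 1.74-fold higher. Gata1 was at 7.09 in control and 7.38 in cisplatin, against 7.68 in astragalus and 7.45 in electro-acupuncture, lowest in control as were Rhag and Icam4. Heme synthesis and iron uptake genes were higher in astragalus than in cisplatin in 14 of 14 cases, with a median of 0.43 and none at 2-fold. Alas2, the first enzyme of heme synthesis in red cells, was at 14.64, 14.99, 15.39 and 15.0 in control, cisplatin, astragalus and electro-acupuncture, and Tfrc, the transferrin receptor, at 15.31, 15.2, 15.75 and 15.49. After loess the medians of the skeleton, regulator and heme lists in this comparison were 0.25, 0.12 and 0.08, against 0.73 for the 8 members. The genes then higher in astragalus were 9 of 10, 10 of 14 and 9 of 14, and 22 of 27 in the list of other surface genes, whose median was 0.13. Since members and lists were chosen with earlier results of these data known, the contrast between them is not independent of that choice. Of the 10 genes listed for early erythroid and progenitor cells, 8 were higher in astragalus than in cisplatin and 2 lower, with a median of 0.41, or 0.09 after loess. Among them Car1, a carbonic anhydrase, was 2.1-fold and Top2a, a topoisomerase of dividing cells, 2.01-fold higher. Kit, the stem cell factor receptor, was between 6.72 and 6.85 on all 4 arrays. The lists share genes, since Tfrc is in this list and the heme list, and Epor in this list and the regulator list.

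**Figure D5:**
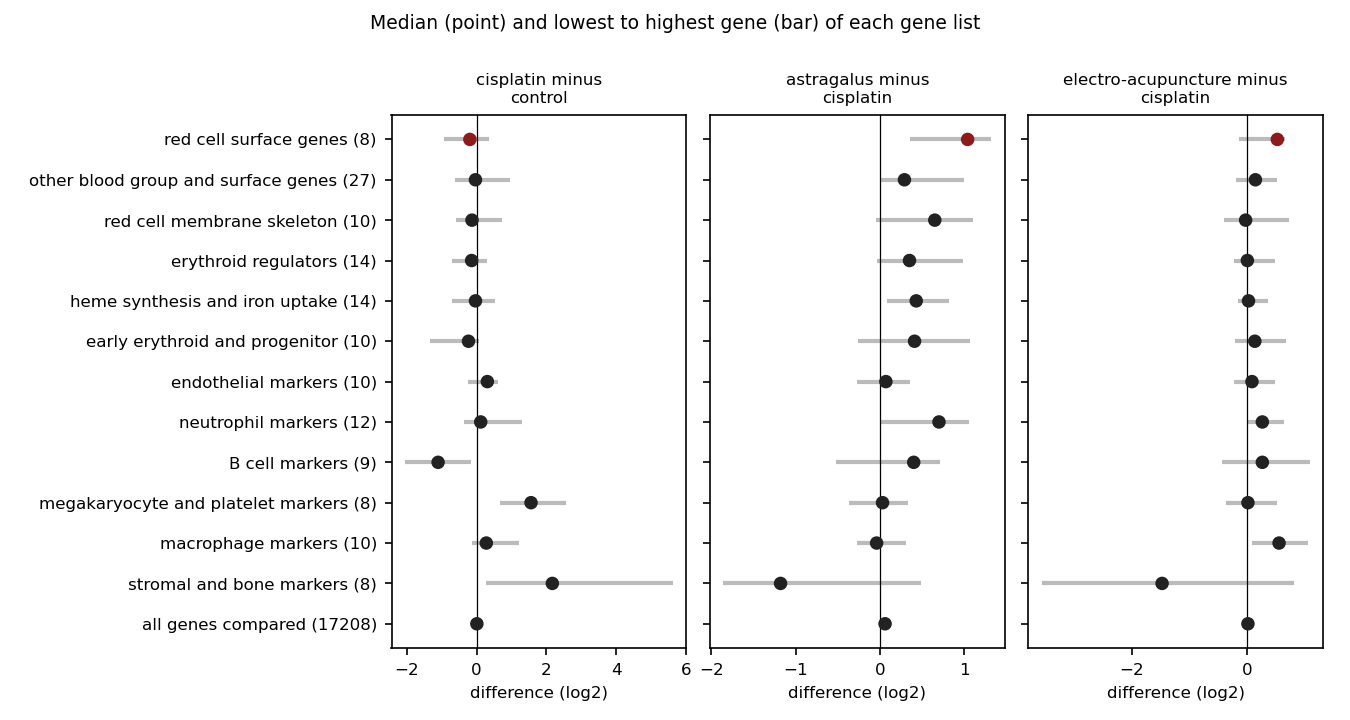
Median log2 difference (point) and the lowest to highest gene (bar) of each gene list in 3 comparisons with cisplatin; the number of genes above the floor is in brackets, and each panel has its own scale. The red point of the 8 members is at 1.04 in astragalus minus cisplatin, above the medians of the other lists shown.

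Markers of other marrow cells moved between the arrays as well. All 12 neutrophil markers were above the floor, with S100a8 and S100a9 at the ceiling on every array. Of these, 10 of 12 were higher in astragalus than in cisplatin, with a median of 0.7. After loess 9 of 12 were, with a median of 0.32. Both medians were above those of the skeleton, regulator and heme lists. The list median level of the neutrophil markers was 15.51 in astragalus, where it was 14.69 in control, 14.63 in cisplatin and 14.77 in electro-acupuncture. B cell markers were lower in cisplatin than in control in 9 of 9 cases, with a median of -1.1, and platelet markers were higher in 8 of 8, with a median of 1.56. Stromal and bone markers were higher in cisplatin than in control in 8 of 8 cases (median 2.17) and lower in astragalus than in cisplatin in 6 of 8 (median -1.18). In marrow RNA fewer cells of a type and less RNA per cell cannot be told apart, and the part of these other cells in the members' differences was not tested. Aqp1 is also made by endothelial cells, whose 10 markers above the floor had a list median of 5.6 in control and between 5.9 and 6.0 on the other arrays, not far above the floor of 5.235, and the part of these cells in the Aqp1 difference was not tested. Of these 10 markers, 6 were higher in astragalus than in cisplatin and 4 lower, with a median of 0.07. Cdh5, the endothelial cadherin, was at 6.23 in astragalus and 6.12 in cisplatin, and Pecam1 at 7.65 and 7.45. Macrophage markers, whose cells bind erythroblasts in the marrow, were higher in electro-acupuncture than in cisplatin in 10 of 10 cases, with a median of 0.56.

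Among 11225 other protein-coding genes compared, those with the profile nearest to the median of the 8 members over the 4 arrays were Pttg1 (the securin of mitosis), at a distance of 0.053, and Bsdc1, at 0.093. Cldn13, a claudin of mouse erythroid cells, followed at 0.095, Atg4a, a protease of autophagy, at 0.098 and Ccna2, cyclin A2, at 0.103. The next were Narf, Slc43a1, Ikzf1, Orm1 and Psmd5, at 0.111 to 0.127. Only 1 of these 10, Slc43a1, belonged to a list above. For single members the nearest genes were Ppib for Rhag (0.119), Tmx1 for Rhd (0.142), Cdk1 for Ermap (0.093) and Slc30a9 for Kel (0.075). Rrm1 was nearest to Aqp1 (0.071), Ncaph to Slc4a1 (0.022), Txnl1 to Icam4 (0.038) and the gene model 4930438A08Rik to Gypc (0.022). Cdk1 starts mitosis, Rrm1 supplies nucleotides for DNA and Ncaph belongs to condensin. With 4 points per profile, and the same 4 arrays behind all of them, such distances describe these arrays alone.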

How the data were processed

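RNA of mouse bone marrow was hybridised to 4 arrays, 1 per group. The deposited values are log2 levels per transcript cluster, made with Affymetrix Expression Console per the submitters' processing notes; the sources used here give no version, summary method or genome build. The scale was inferred from the range of values, 2.7 to 19.93. No column was left unmapped.

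Of 65956 clusters 32750 were in the platform's gene table, 31258 with 1 symbol and 1492 with several, from which no gene was named. Symbols were updated through RefSeq names of GRCm38.p6 (1152 clusters). Genes whose 4-array mean reached a floor of 5.235, the median over clusters, were compared; of the 441 genes with several clusters, the brightest was used. This left 17208 genes. Differences between 2 arrays were counted from a size of 1 on the log2 scale, in either direction. No p-value is given. Alternatives were quantile normalization, removal of a loess trend (span 0.3), median centring, the mean of clusters, other floors and a 1.5-fold threshold; background among protein-coding genes alone was added after seeing the data. The steps were tested on simulated data with Python 3.11.15, pandas 2.3.3 and statsmodels 0.14.6.

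The members and gene lists were chosen with earlier results of these data known. The genes named are the 8 members, genes of the other surface list, the 3 largest differences of each other list in a comparison, a fixed set (among it Ank1, Epb42, Gata1, Klf1, Alas2, Tfrc, Kit, Cdh5 and Pecam1), the 10 genes nearest the members' median profile and the nearest for each member. S100a8 and S100a9 lie outside this rule, and they and the surface genes picked from the other list were chosen after their values were seen. Protein sequences were not used here.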

Additional observations from a re-analysis of the deposited data

How the results depend on the processing

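For the 8 members, the other floors, the mean of clusters and the protein-coding background gave the reported counts and medians in all 6 comparisons. This was fixed beforehand, since each member has 1 cluster of its own, is protein-coding and lies above every floor used. In astragalus minus cisplatin the count of members past the threshold was 4, with 5 after centring, 3 after quantile normalization and 0 after loess, and the median of 1.04 became 0.83 after quantile normalization and 0.73 after loess. After centring 552 of 17208 genes were at least 2-fold higher in this comparison, and the shares for the other scalings are given above. In astragalus minus control the count of 3 became 2 after quantile normalization and 1 after loess, and the median of 0.76 became 0.42 and 0.2. In astragalus minus electro-acupuncture the median of 0.64 became 0.37 and 0.33. In cisplatin minus control the count of 0 became 1 after quantile normalization and 1 after loess, Kel in each case, and in electro-acupuncture minus control it became 1 after loess, again Kel. At 1.5-fold the counts were 2 in cisplatin minus control, 7 in astragalus minus cisplatin, 2 in electro-acupuncture minus cisplatin, 5 in astragalus minus control, 3 in electro-acupuncture minus control and 5 in astragalus minus electro-acupuncture. The medians of 0.76 in astragalus minus control and 0.64 in astragalus minus electro-acupuncture then passed the threshold. Of the 48 single differences, 4 changed sign after loess and 1 after quantile normalization, all of them under 2-fold. No paired analysis was possible because each group has 1 array, and for the same reason no array could be left out. Levels near the floor, as for the endothelial markers, leave little room to show a lower value.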
